A study of Mus musculus with 4 samples.

Results

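Timp4 Car4 capillary endothelial cells (ECs) were the cardiac ECs whose transcripts of Timp4, Car4 and C1qtnf9 summed to at least 3 unique molecular identifiers (UMIs) and that lacked signs of arterial, venous, sprouting, cytokine-activated, interferon-activated and mural cells. They numbered 8480 of 36364 ECs, among 41843 deposited cells. An EC was a cell with at least 3 UMIs over Pecam1, Cdh5, Kdr, Tie1, Egfl7 and Cldn5. Members had no UMI of Gja4, Gja5, Hey1, Sema3g, Selp, Apln, Pgf, Il6, Adamts4 or Plaur, at most 1 UMI over Ifit1, Ifit2, Ifit3, Ifit3b and Oasl1, and at most 1 over Kcnj8, Abcc9, Vtn and Pdgfrb. Members were thus selected on these UMI counts, and the levels of those genes are given below as a description only.

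RFP-positive cells were profiled by scecRNA-seq, that is RNA sequencing of single cardiac ECs, after being sorted from the left ventricle, in 2 libraries labelled NC and 2 labelled HFpEF. The floxed mice were made on a C57BL/6N background, and all mice carried an R26-stop-tdTomato reporter, a floxed Scarb1 allele (Scarb1 encodes scavenger receptor SR-B1) and the tamoxifen-inducible Cdh5-CreER driver, which acts in ECs, so RFP marks cells recombined at the reporter. Tamoxifen was given from 7 weeks of age, at 100 mg/kg every 2 days for 5 injections. NC mice were fed a chow diet with 10% of energy from fat, and HFpEF mice, a model of heart failure with preserved ejection fraction, were fed 60% fat with 0.5 mg/mL L-NAME, an inhibitor of nitric oxide synthase, in the drinking water. The design names mice homozygous (Sfl/fl/RΔEC) and heterozygous (Sfl/+/RΔEC) for the floxed allele on each diet, but the labels give the diet of a library and not its genotype. The 2 libraries of a diet may therefore differ in genotype, and the comparison below is of diets. Neither the age at collection nor the number of mice per library was given for these libraries in the sources used here. The spread between libraries of a diet may thus be technical, biological or one of genotype. The SDs over 2 libraries and the error of the tests between diets may include a difference of genotype.

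Capillary ECs of the heart form the exchange surface between blood and cardiomyocytes. They carry fatty acids across the vessel wall, with GPIHBP1 holding lipoprotein lipase at the luminal surface, CD36 taking up fatty acids and FABP4 binding them inside the cell. Timp4 encodes an inhibitor of matrix metalloproteases, Car4 a carbonic anhydrase anchored to the outer membrane of capillary ECs, where it interconverts carbon dioxide and bicarbonate, and C1qtnf9 a secreted relative of adiponectin. In GRCm38, Timp4 lies at chr6:115241892-115252205 on the minus strand, Car4 at chr11:84957786-84966044 and C1qtnf9 at chr14:60768134-60780869, both on the plus strand. Quiescent capillary ECs rarely divide and have low levels of adhesion molecules and cytokines.

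The libraries differed in depth, and this bears on every threshold of whole UMIs. Deposited totals were 30387717 UMIs over 7465 cells in NC library 1, 31517933 over 6924 in NC library 2, 11163876 over 5769 in HFpEF library 1 and 48003732 over 21685 in HFpEF library 2. Members had a median of 3550, 3840, 1895 and 1971 UMIs in that order, so cells of both HFpEF libraries were shallower than those of both NC libraries. All comparisons were therefore repeated with each cell thinned to 1000 UMIs before the rule was applied. Pairs of libraries shared between 10 and 42 cell barcodes, at most 0.728% of the smaller library.

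Members formed a smaller share of ECs in the HFpEF libraries. They were 2369 of 6793 ECs (34.9%, exact 95% binomial interval 33.7 to 36.0) in NC library 1 and 2207 of 6350 (34.8%, 33.6 to 35.9) in NC library 2. They were 1145 of 4908 (23.3%, 22.2 to 24.5) in HFpEF library 1 and 2759 of 18313 (15.1%, 14.6 to 15.6) in HFpEF library 2. Both HFpEF libraries lay below both NC libraries, with means of 34.8% ± 0.0836 (SD, n = 2) for NC and 19.2% ± 5.84 (SD, n = 2) for HFpEF. The size of the gap depended on the rule. Means for NC and HFpEF were 37.8% and 28.3% with a marker threshold of 2, 28.6% and 8.52% with 5, and 75.1% and 35.8% without the exclusions. With 2 libraries against 2, an exact two-sided permutation test cannot give a p below 0.33, so no test was made, and the intervals cover counting error only.

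The same order of the diets was seen at equal depth. After thinning to 1000 UMIs, members were 30.5% and 25.7% of the NC ECs and 14.2% and 10.3% of the HFpEF ECs, with 426, 352, 963 and 5133 of the cells that passed the cell filters left out as too shallow. At 2000 UMIs the shares were 39.9% and 39.1% against 22.9% and 16.9%. In thinned ECs, the share with at least 3 UMIs of the 3 marker genes was 37.5% and 30.1% in NC and 17.2% and 13.9% in HFpEF, whereas the share with an arterial UMI, which the rule excluded, was 17.6%, 15.5%, 13.6% and 15.5%. Of the thinned ECs that reached the marker threshold, 81.2%, 85.2%, 82.2% and 74.4% also passed every exclusion. At this depth the marker threshold thus separated the diets, and the exclusions removed cells at similar rates in 3 libraries and more often in HFpEF library 2. As deposited, 2369 of 5187, 2207 of 4683, 1145 of 1830 and 2759 of 6281 ECs at the marker threshold passed the exclusions, which removed the smallest part in HFpEF library 1. A UMI of Il6, Adamts4 or Plaur was present in 8.24%, 6.56%, 10.2% and 15.5% of thinned ECs.

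Among the 3 marker genes the gap was widest for Timp4. Timp4 was detected in 60.2% and 50.1% of thinned NC ECs and in 34.4% and 30.0% of thinned HFpEF ECs. Car4 was detected in 31.2% and 30.9% against 26.8% and 27.0%, and C1qtnf9 in 34.5% and 34.1% against 28.0% and 23.4%. Each of the 3 genes was thus found in fewer ECs in both HFpEF libraries. The shares were low in cells that should lack these genes: of 87 thinned cells with leukocyte marker UMIs and no endothelial UMI, 1.15% had a Timp4 UMI, 1.15% a Car4 UMI and none a C1qtnf9 UMI, which allows a share of up to 3.45%, while 36.8% had a UMI of the abundant Fabp4. These cells were 2, 25, 10 and 50 in the 4 libraries, with the Timp4 and Car4 UMIs in HFpEF library 2, so the pooled share says little of NC library 1. Leaving out cells with an endothelial UMI may itself lower these shares, so the share due to stray UMIs may be higher in ECs. The median depth of those cells before thinning was 4025, 4754, 3012.5 and 2481.5 UMIs, against 3846, 4207.5, 1823 and 1766 in all ECs.

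**Figure D1:**
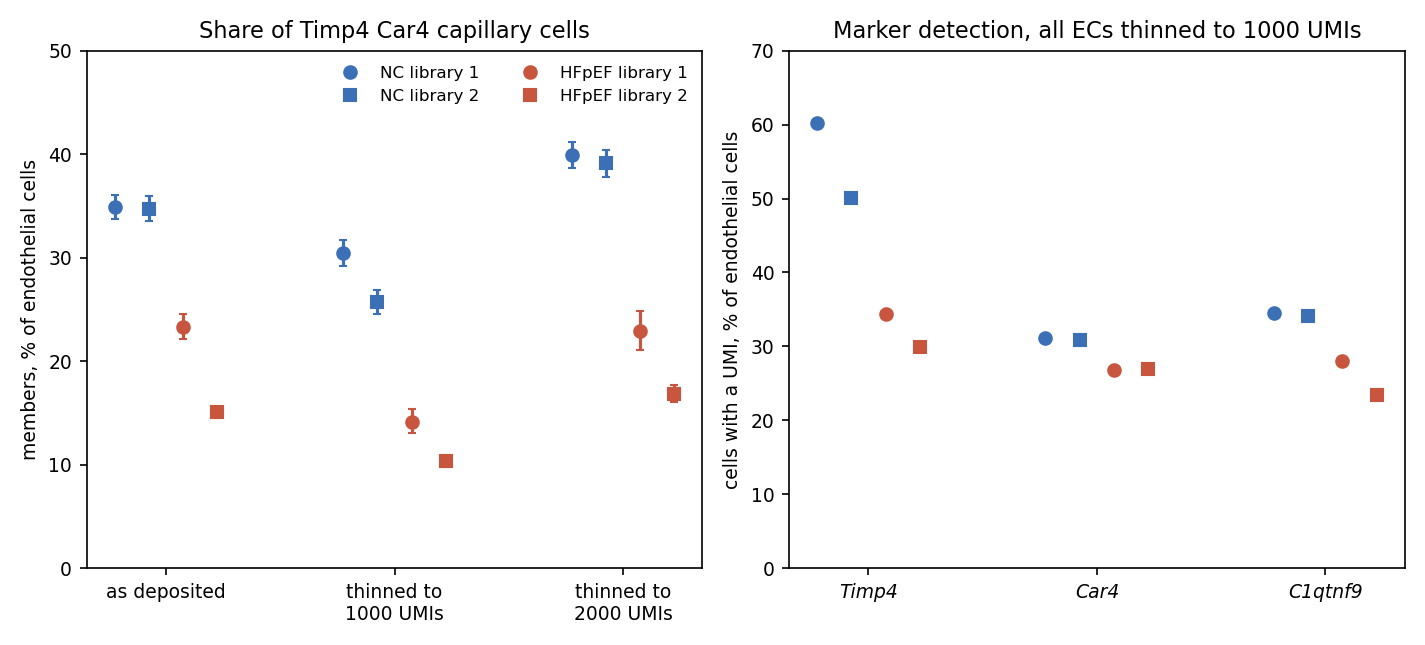
Share of ECs that met the rule for Timp4 Car4 capillary cells in each of the 4 libraries, in percent, as deposited and with cells thinned to 1000 UMIs; error bars are exact 95% binomial intervals. Both HFpEF libraries lie below both NC libraries at either depth, at 23.3% and 15.1% against 34.9% and 34.8% as deposited.

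Within the members, the makeup of the marker signal differed between libraries. Timp4 gave 61.5%, 54.1%, 48.6% and 46.8% of the marker UMIs of members in NC libraries 1 and 2 and HFpEF libraries 1 and 2, Car4 19.6%, 23.4%, 25.8% and 30.7%, and C1qtnf9 18.8%, 22.5%, 25.6% and 22.5%. As a level in CPM, counts per 1000000 UMIs of the members, Timp4 was 1828 and 1356 in NC and 1151 and 1013 in HFpEF, Car4 583 and 586 against 612 and 665, and C1qtnf9 560 and 563 against 605 and 487. All 3 genes were detected together in 57.4% and 59.1% of NC members and 32.8% and 32.1% of HFpEF members as deposited, and in 25.3%, 26.9%, 22.6% and 19.2% after thinning. Most of the gap in joint detection was thus present only at the deposited depths. Near the threshold, 177, 210, 493 and 1503 cells that met every other term had 2 marker UMIs and 207, 210, 380 and 969 had 3.

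The capillary label was checked on genes outside the rule. Compared within each library with arterial ECs, which had at least 2 UMIs of the arterial genes of the rule, members had higher levels of the water channel gene Aqp1, by 2.79 ± 0.33 on the log2 scale (mean ± SD over 4 libraries), of Fmo1 by 1.48 ± 0.29, of Lpl by 0.92 ± 0.24, of Rgcc by 0.77 ± 0.15, of Gpihbp1 by 0.64 ± 0.22 and of Fabp4 by 0.50 ± 0.14. Of 21 capillary identity genes with at least 20 CPM in both classes, 13 were above and 7 below arterial ECs in all 4 libraries, both as deposited and after thinning. Over all genes of that level the numbers were 1038 above and 1898 below of 5501 as deposited and 669 and 1090 of 5352 after thinning. The genes below included Rbp7 (-1.21 ± 0.18), which encodes a retinol-binding protein, Btnl9 (-1.03 ± 0.23) and the taurine transporter gene Slc6a6 (-0.90 ± 0.12), so not every gene on the capillary list was highest in these cells. All 12 arterial genes outside the rule with at least 20 CPM in both classes were below arterial ECs in every library, as deposited and after thinning. As deposited the gap was widest for Stmn2 at -2.43 ± 0.51 and smallest for Cxcl12 at -0.33 ± 0.14, with the Notch ligand gene Jag1 at -2.06 ± 0.39. Genes below 20 CPM in members, such as Fbln5 and Clu, were not counted, since they reached that level through arterial ECs alone. These are descriptions, since the rule selected the cells.

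The nearest population in the data was the marker-low capillary cells, 9143 ECs that met all exclusions but had 0 to 2 marker UMIs. They were 538, 596, 1739 and 6270 cells in the 4 libraries, at a median depth of 1885.5, 2003.5, 1428 and 1170.5 UMIs, shallower than members in each. Members were above them in all 4 libraries for 17 of 22 capillary identity genes as deposited and for 14 of 22 after thinning, against 732 of 5589 and 584 of 5532 of all genes with at least 20 CPM in both classes. Below marker-low cells in all 4 libraries were 4 of the 22 as deposited (Btnl9, Clec2d, Slc6a6 and Rbp7) and 3 after thinning, against 792 and 811 of all genes. Aqp1 was 0.87 ± 0.30 higher on the log2 scale as deposited and 0.64 ± 0.11 after thinning, Gpihbp1 0.46 ± 0.21 and 0.39 ± 0.05, Cd36 0.25 ± 0.10 and 0.19 ± 0.02, and Fabp4 0.33 ± 0.17 and 0.28 ± 0.05. Members thus carried more transcripts of these 4 genes for water and fatty acid transport than the cells that the rule set apart by the 3 marker genes alone. Of 20 fatty acid uptake and transport genes, 12 were above marker-low cells in every library and none was below, and after thinning 9 were above and 1 below.

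Other genes high in members against marker-low cells were Adh1, an alcohol dehydrogenase gene (0.90 ± 0.32), the bone morphogenetic protein gene Bmp6 (0.56 ± 0.17) and Cdkn1c (0.55 ± 0.16), which encodes the cell cycle inhibitor p57. After thinning the values were 0.79 ± 0.20 for Adh1, 0.55 ± 0.23 for Bmp6 and 0.46 ± 0.12 for Cdkn1c. Tnfrsf21, Spaar, Tspan15, Lmo1, Abcb1b, Gda, Bbs9, Zfp985, Gmpr and Dok4 were also above marker-low cells in all 4 libraries at both depths. Of all genes with at least 20 CPM in both classes, 732 of 5589 were above as deposited and 584 of 5532 after thinning. The named genes were picked for a high ratio at 20 CPM or more in members, so their ratios are a description only. The T cell and platelet chemokine gene Ccl5 ranked first as deposited (3.69 ± 2.75) but lay below after thinning (-2.52 ± 1.31), with 8.27, 25.3, 104 and 0.753 CPM in the members of the 4 libraries. It was detected in at most 0.195% of thinned members. The level of Ccl5 was thus not a shared property of the cells.

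Marker-low cells held transcripts of other cell types. Their cardiomyocyte markers summed to 74.5, 61.7, 237 and 102 CPM in the 4 libraries. In members this list summed to 95.8, 62.1, 265 and 91.4 CPM, so cardiomyocyte transcripts did not set marker-low cells apart. In marker-low cells the cardiomyocyte, smooth muscle, T cell and lymphatic sums were higher in both HFpEF libraries. Their endocardial and fibroblast sums were higher in both NC libraries. Endocardial markers summed to 279 and 159 CPM in marker-low cells of NC and 30.5 and 29.0 in those of HFpEF, and fibroblast markers to 227, 158, 35.8 and 39.95. In members the same lists summed to 6.99, 9.08, 16.8 and 14.3 CPM and to 6.87, 9.95, 7.56 and 11.8 CPM. The genes least abundant in members against marker-low cells were Mgp, a matrix gene, Cytl1, the proteoglycan gene Dcn, H19, Plvap and Ctsh. They reached 20 CPM through marker-low cells alone, so their low ratios follow from that choice and nothing is read from them. Mgp averaged 326 CPM over the marker-low cells of the 4 libraries as deposited and 97.2 CPM after thinning, when the marker-low cells were chosen anew.

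**Figure D2:**
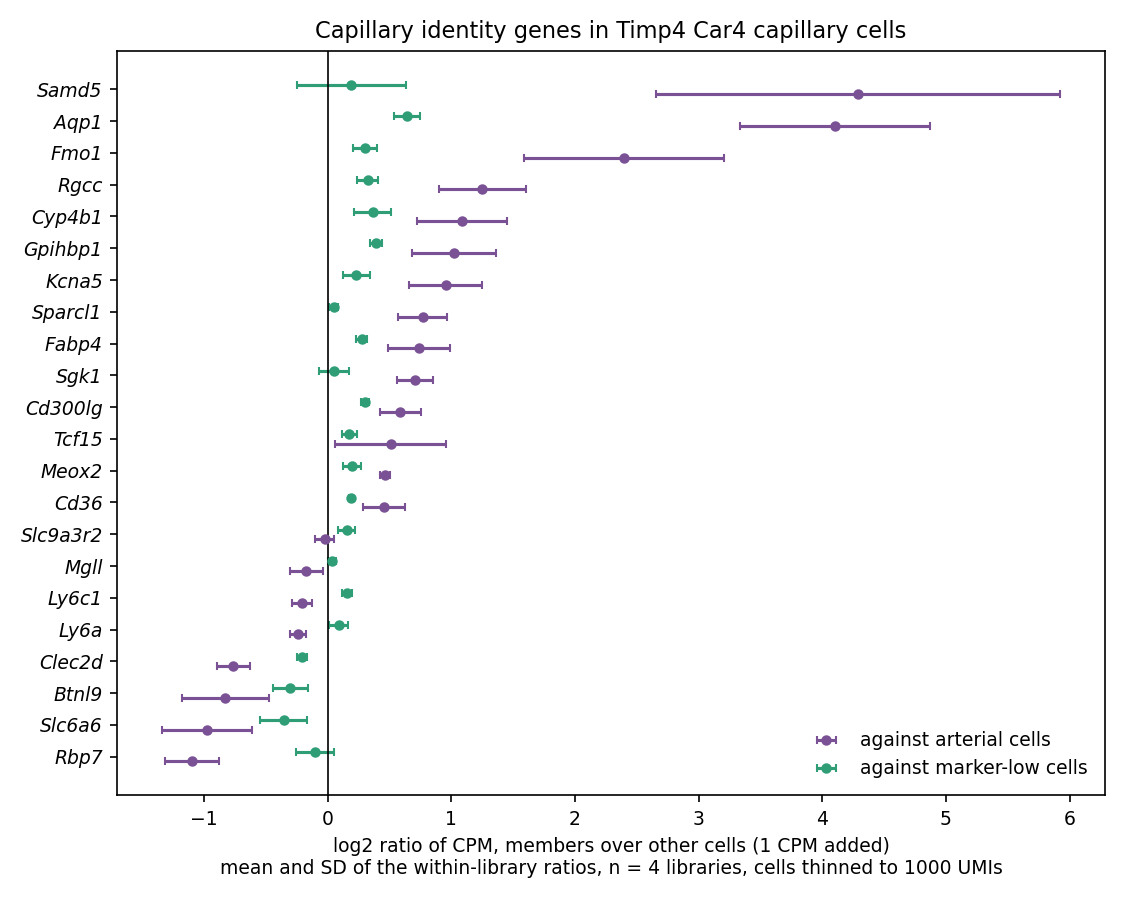
Log2 ratio of members to arterial ECs and to marker-low capillary ECs for each gene of the capillary identity list. Points and bars are the mean and SD over the 4 libraries, with cells thinned to 1000 UMIs. Against marker-low cells, 14 of the 22 genes were above 0 in all 4 libraries and 3 below. Against arterial ECs, 13 were above and 7 below of 21 genes with at least 20 CPM in both classes.

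The word quiescent was checked on genes outside the rule. Mki67, which marks dividing cells, had 23, 1, 6 and 3 UMIs in all members of the 4 libraries, and the topoisomerase gene Top2a 58, 19, 20 and 29. Among 16 inflammatory genes with at least 20 CPM in both classes, none was above and 9 were below marker-low cells in all 4 libraries, where 792 of all 5589 genes were below. Of 25 immediate early and heat shock genes, none was above and 19 were below, and after thinning the numbers below were 11 of 14 and 23 of 25. Fos was at -0.22 ± 0.09 and Hspa1a at -0.30 ± 0.07 after thinning. Of 23 quiescence and flow response genes, 6 were above and 7 below, and the flow-responsive transcription factor gene Klf2 differed by 0.05 ± 0.05. Division was thus rare, and the flow response genes did not set members apart as a list. Immediate early genes were nevertheless abundant, with Junb at 4084, 4107, 3920 and 3538 CPM.

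Transcripts of other cell types were scarce in members. Cardiomyocyte markers, of which Mb and Tnnt2 were the most abundant, summed to 95.8, 62.1, 265 and 91.4 CPM and were highest in HFpEF library 1. All 7 tested cardiomyocyte markers had fitted differences above 0, with a median of 0.96, or 1.02 over the 5 tested after thinning. Of these 7, 3 were higher in both HFpEF libraries, against 23.2% of all genes tested, though none passed. Pericyte markers outside the rule summed to 146, 138, 186 and 96.3 CPM and were almost wholly Rgs5. Myeloid markers summed to 48.5, 23.7, 20.1 and 20.6 CPM, smooth muscle markers to 3.72, 4.26, 4.20 and 5.99, T cell markers to 0.789, 2.62, 4.62 and 2.30, B cell markers to 1.80, 9.73, 11.3 and 8.29 and lymphatic markers to 1.58, 0.875, 1.68 and 1.69. Few UMIs of these lists were present: of the lymphatic markers Prox1 had 4 UMIs in each library and Pdpn none, of the endocardial markers Npr3 had 56, 61, 38 and 79 and Hapln1 none, and of the smooth muscle markers Tagln had 18, 22, 7 and 26, Acta2 13, 12, 2 and 10 and Cnn1 none. Erythroid markers summed to 2.59 and 5.36 CPM in NC and 8.40 and 38.8 in HFpEF, higher in both HFpEF libraries, whereas the cardiomyocyte sums overlapped between the diets. Only cells with under 1% of 4 hemoglobin genes had been kept, so the erythroid sums are a description only. The part of cardiomyocyte and erythroid transcripts in the results below was not tested. Xist had no UMI in members and Ddx3y was at 58.3, 60.5, 61.3 and 81.3 CPM.

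Members were not uniform. In thinned members, where each cell had 1000 UMIs, the variance-to-mean ratio of counts across cells had a median of 1.05 over 1246 genes of at least 0.1 UMI per cell, close to that of counting alone. The nuclear RNA Malat1 reached 10.5 ± 4.09 (mean ± SD over 4 libraries), the heat shock gene Hspa1a 5.31 ± 0.864, Fabp4 5.10 ± 0.732, Rgs5 4.17 ± 0.567 and Aqp1 2.70 ± 0.145. Fabp4 was present in every thinned member, and its spread was therefore one of amount. Aqp1 was detected in 71.8% and 72.7% of NC members and 66.1% and 52.6% of HFpEF members. Hspa1a was detected in 58.7% and 44.9% of NC members and 82.1% and 85.3% of HFpEF members, so its detection varied among cells within every library and between the diets. The share in cells that should lack a gene was measured for Timp4, Car4, C1qtnf9, Thrsp and Fabp4 only. Detection of other genes may therefore include UMIs from outside the cell.

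Scarb1, the floxed gene, differed more between libraries of a diet than between diets. It stood at 112 and 46.6 CPM in NC libraries 1 and 2 and at 115 and 47.3 CPM in HFpEF libraries 1 and 2, where CPM refers to UMIs summed over members and scaled by the trimmed mean of M values (TMM). A Scarb1 UMI was present in 13.0%, 4.72%, 12.3% and 5.79% of the thinned members of the 4 libraries. The diets overlapped, and the fitted difference was -0.05 ± 0.42 on the log2 scale (adjusted p = 0.98, quasi-likelihood test of edgeR, Benjamini-Hochberg). Library 2 of each diet was the lower. As the study describes, the loxP sites surround exon 2, and the labels do not say which libraries were homozygous, so whether this gap follows the deletion was not tested.

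UMIs of the members were summed per library and compared between diets with edgeR's quasi-likelihood test across 11186 genes outside the rule. In all, 29 genes (0.259%) passed an adjusted p of 0.05, of which 24 (0.215%) were higher and 5 (0.0447%) lower in HFpEF. The higher genes included chaperones (Hsph1, Hspa1a, Hspe1, Hspd1, Ptges3), interferon-inducible GTPases (Gbp3, Gbp7, Ifi47, Gvin1), the stress cytokine gene Gdf15, the prostaglandin E2 receptor gene Ptger4 and the phosphodiesterase gene Pde4b. The lower genes were Cyp1a1, Thrsp, Vwf, Klf15 and Ccdc28b. The diets did not overlap for 2594 genes that were higher (23.2%) and 2595 that were lower (23.2%) in HFpEF, so non-overlap alone was common. With 2 libraries a diet the count depended on each of them, being 71 without NC library 1, 379 without NC library 2, 165 without HFpEF library 1 and 100 without HFpEF library 2. At equal depth 12 of 8579 genes passed, of which 7 were also among the 29 (Cyp1a1, Hspe1, Thrsp, Gdf15, Hspa1a, Sik1 and Pde4b).

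Cyp1a1 had the largest fall among the called genes. This gene at chr9:57687928-57703824 on the plus strand encodes a cytochrome P450 and is the classical target of the aryl hydrocarbon receptor. Its NC libraries had 29.0 and 38.1 CPM and its HFpEF libraries 0.858 and 1.51, from 256, 349, 2 and 10 UMIs. The groups lay far apart, and the fitted difference was -4.64 ± 0.30 on the log2 scale (SE, adjusted p = 0.000371). After thinning, 3.46% and 3.58% of NC members and 0.195% and 0.0742% of HFpEF members had a Cyp1a1 UMI, and the difference was -5.18 (adjusted p = 0.000507). The gene passed in all 14 other fits. Tiparp, another target of that receptor and named here after its values were seen, was at 43.3, 38.3, 50.6 and 50.9 CPM, with a difference of 0.32 ± 0.13 that did not pass (adjusted p = 0.326).

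Thrsp, which encodes a nuclear regulator of fatty acid synthesis also known as Spot 14, was the most abundant of the lower genes. It lies at chr7:97412938-97417730 on the minus strand. Levels of 286 and 314 CPM in NC compared with 156 and 144 in HFpEF, without overlap, and the difference was -1.0 ± 0.12 (adjusted p = 0.0213). It too passed in all 14 other fits. A Thrsp UMI was present in 26.2% and 29.0% of thinned NC members and in 15.2% of thinned members of both HFpEF libraries. Over all thinned ECs these shares were 21.7%, 22.9%, 12.2% and 12.04%. Of 16 lipid synthesis genes tested, 1 (Thrsp itself) fell and none rose, against 0.0447% and 0.215% of all genes tested. In both HFpEF libraries 3 including Thrsp were below NC and 3 above, against 23.2% of all genes tested in each direction. The ATP-citrate lyase gene Acly was at 101, 86.1, 96.5 and 94.1 CPM.

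The remaining lower genes were Vwf, Klf15 and Ccdc28b. Vwf, encoding the clotting factor von Willebrand factor at chr6:125546774-125686679 (plus strand), was at 33.3 and 34.5 against 6.43 and 11.9 CPM, a difference of -1.75 ± 0.21 (adjusted p = 0.0213). At equal depth its difference was -0.93 and no longer passed (adjusted p = 0.562). Members were also selected anew after thinning, and the cause was not tested. Klf15, a metabolic transcription factor gene at chr6:90462576-90475238 (plus strand), was at 15.5, 8.63, 2.57 and 1.81 CPM (-2.56 ± 0.41, adjusted p = 0.0456) and passed in 7 of 13 other fits. Ccdc28b was at 44.5, 44.7, 21.9 and 25.0 CPM (-0.90 ± 0.14, adjusted p = 0.0403). Genes next in order that did not pass were Cavin3, a caveolar coat gene, at 204 and 191 against 124 and 127 CPM, the sulfotransferase gene Sult1a1 at 361 and 341 against 233 and 194 CPM, the elastin gene Eln at 31.1 and 19.9 against 7.72 and 9.79 CPM, and Adh1 at 112 and 88.0 against 57.5 and 35.7 CPM. Their adjusted p-values were 0.0551 for Cavin3, 0.0592 for Sult1a1 and Eln and 0.0672 for Adh1. At equal depth Sult1a1 (-0.90, adjusted p = 0.0489) and Adh1 (-1.36, adjusted p = 0.0388) passed, and Cavin3 (adjusted p = 0.142) and Eln (adjusted p = 0.364) did not.

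Of the immediate early and heat shock list, 4 heat shock genes rose. These chaperones refold proteins after stress, and their genes are switched on by heat shock factor. Hsph1, at chr5:149614287-149636376 on the minus strand, encodes a cofactor of HSP70 and stood at 42.7 and 21.8 CPM on NC against 109 and 134 on HFpEF (1.93 ± 0.25, adjusted p = 0.0213). Hspa1a, an inducible HSP70 gene at chr17:34969190-34972156 on the minus strand, was at 2606 and 1657 against 5103 and 5419 CPM (1.30 ± 0.21, adjusted p = 0.0456). Neither gene overlapped between the diets. At equal depth Hspa1a passed, whereas Hsph1 had 1.82 and did not (adjusted p = 0.108). Hspa1b, a near-identical copy with which Hspa1a may share reads, was at 1898, 974, 3557 and 4490 CPM and did not pass (adjusted p = 0.0727).

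Hspe1 and Hspd1 encode the paired mitochondrial chaperones HSP10 and HSP60 and lie head to head, overlapping at their starts, at chr1:55088132-55091307 on the plus strand and chr1:55077835-55088243 on the minus strand. Hspe1 was at 122 and 98.6 CPM in NC and 217 and 255 in HFpEF (1.11 ± 0.14, adjusted p = 0.0213), and it passed in all 14 other fits. Hspd1 was at 89.8 and 75.8 against 152 and 147 CPM (0.85 ± 0.12, adjusted p = 0.0364), but at equal depth it had 0.81 and did not pass (adjusted p = 0.121). Both genes of the pair were thus higher in both HFpEF libraries. Of the 26 tested genes of the immediate early and heat shock list 4 rose and none fell, against 24 (0.215%) and 5 (0.0447%) of all 11186 genes. In HFpEF 14 of the 26 were higher without overlap and 4 lower, against 23.2% of all genes tested in each direction. The immediate early genes Fos and Jun overlapped between the diets: Fos was at 2947, 2793, 3350 and 2704 CPM and Jun at 3548, 3456, 3781 and 3097. The list median was 0.30 against 0 over all genes tested, to 2 decimals.

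Stretches at the start sites of 3 of these genes are shown because they hold letters of the heat shock element, inverted repeats of GAA that heat shock factor binds. Sequences are from RefSeq (GRCm38.p6), 5′ to 3′ on the gene's strand, with matches in capitals. For Hsph1, positions 7 to 36 after the start (chr5:149636280-149636309, minus strand) are shown, counted from a RefSeq start that lies inside the gene as GENCODE annotates it, and for Hspe1 and Hspa1a positions -150 to -1 (chr1:55087998-55088147, plus, and chr17:34972157-34972306, minus). In Hsph1 and Hspe1 the capitals mark the three-part element, the units GAA, TTC and GAA with any 2 bases between them, on either strand, with overlapping matches in Hspe1 from positions -89 and -84. In Hspa1a they mark its shorter form of GAA and TTC, again 2 bases apart, from position -104.
Hsph1: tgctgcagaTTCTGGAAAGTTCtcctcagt
Hspe1: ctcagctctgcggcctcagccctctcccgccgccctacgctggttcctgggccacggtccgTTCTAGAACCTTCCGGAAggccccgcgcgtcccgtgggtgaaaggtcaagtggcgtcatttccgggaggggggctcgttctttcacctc
Hspa1a: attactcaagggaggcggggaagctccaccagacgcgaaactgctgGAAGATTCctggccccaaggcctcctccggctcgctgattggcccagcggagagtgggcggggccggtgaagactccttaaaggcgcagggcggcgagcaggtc
Windows of 250 bases before to 50 after the start were found for 19 of the 29 called genes. The three-part element, searched on both strands, was in the windows of 4 of these 19 (Hsph1, Hspe1, Hspd1 and Gm29773) and in 0.603% of all 32851 windows, and the shorter element, which is contained in it, in 6 of 19 and 7.86%. A window of Hspd1 overlaps that of Hspe1 on the opposite strand, so their matches are not independent. A match describes the sequence and is not evidence of binding in these cells.

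**Figure D3:**
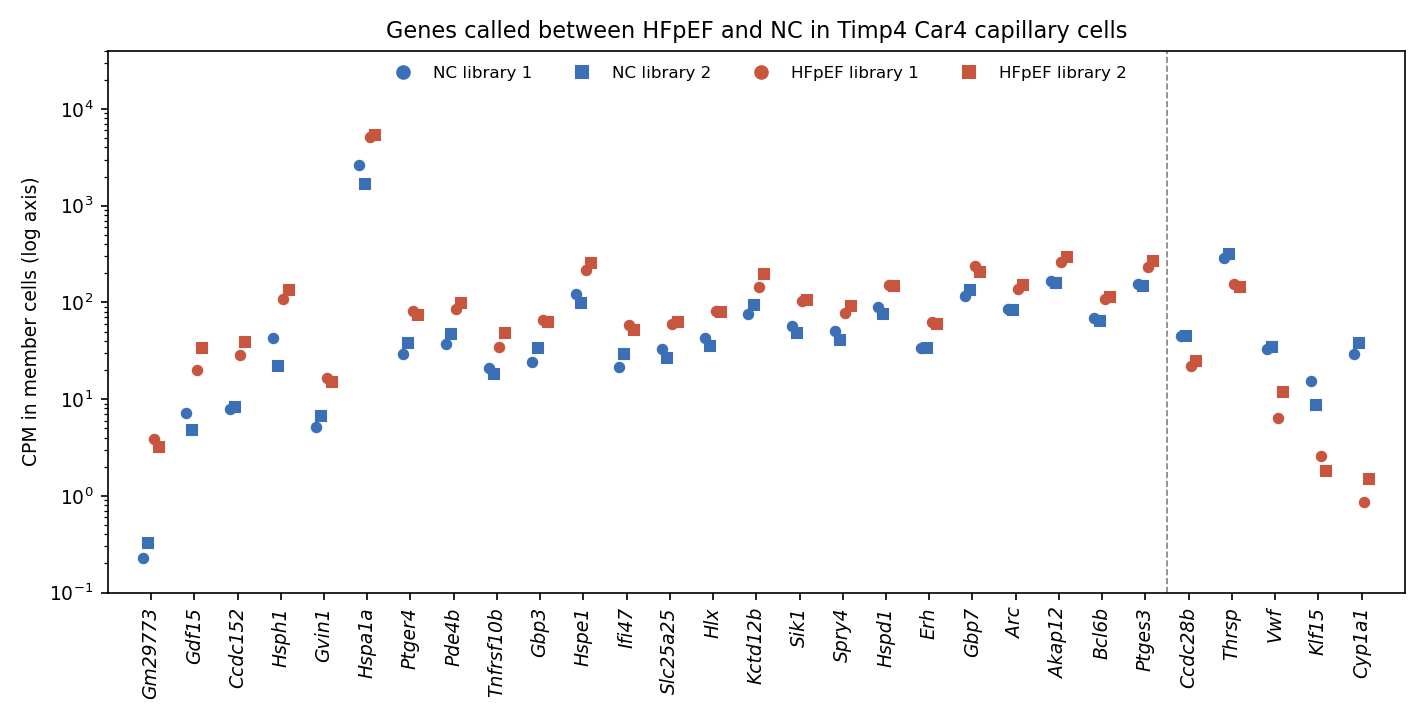
CPM in members of each of the 4 libraries on a log axis for the genes that passed the test between diets, ordered by fold change. In none of the genes do the NC and HFpEF libraries overlap, and Cyp1a1 shows the widest gap, from 29.0 and 38.1 to 0.858 and 1.51 CPM.

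Called genes also included interferon-inducible GTPases, which act in cell-autonomous defence. Gbp3 (chr3:142560026-142573209, plus strand) stood at 23.9 and 34.0 CPM in NC and 66.1 and 62.0 in HFpEF (1.14 ± 0.17, adjusted p = 0.039), and its neighbour Gbp7 (chr3:142530342-142550149, plus strand) at 116 and 136 against 240 and 207 CPM (0.82 ± 0.13, adjusted p = 0.043). Outside the list, Ifi47 was at 21.3, 29.4, 58.8 and 51.5 CPM (1.10 ± 0.17) and Gvin1 at 5.10, 6.66, 16.7 and 14.9 CPM (1.40 ± 0.23). All 4 genes were higher in both HFpEF libraries, and none passed at equal depth, where the differences were 1.18 for Gbp3, 0.66 for Gbp7, 0.88 for Ifi47 and 1.09 for Gvin1. Of 27 tested interferon and antigen presentation genes 2 rose and none fell, against 0.215% and 0.0447% of all genes tested. The list median was 0.57, or 0.32 after thinning. In HFpEF 18 were apart (no overlap between the diets) and higher and none apart and lower, against 23.2% of all genes tested in each direction. The antigen presentation gene B2m was at 2193, 2294, 3194 and 3472 CPM and H2-K1 at 1402, 1653, 2334 and 1957, neither passing (adjusted p = 0.137 and 0.219). The related genes Igtp, Irgm1 and Gbp2 of the list, at 73.8, 74.5, 132 and 114, at 89.7, 125, 195 and 169 and at 65.6, 81.1, 139 and 103 CPM, did not pass (adjusted p = 0.054, 0.0972 and 0.115). Isg15, a classical type I interferon target, overlapped at 270, 347, 343 and 279 CPM. The rule itself capped 5 interferon-induced genes at 1 UMI in a cell, so members with a strong type I response had been left out of these sums.

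The promoters of Gbp7 and Gbp3 are shown for the same reason, with matches in capitals to TTTC repeated after any 2 bases, the letters of the interferon-stimulated response element, searched on both strands. They cover positions -150 to -1 (chr3:142530186-142530335 and chr3:142559894-142560043, both plus strand).
Gbp7: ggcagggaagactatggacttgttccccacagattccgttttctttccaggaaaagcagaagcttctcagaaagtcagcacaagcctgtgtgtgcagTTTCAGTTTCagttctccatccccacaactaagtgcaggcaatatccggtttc
Gbp3: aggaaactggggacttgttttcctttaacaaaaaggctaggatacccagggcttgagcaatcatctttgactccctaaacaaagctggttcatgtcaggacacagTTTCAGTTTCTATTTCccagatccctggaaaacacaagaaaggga
The match in Gbp7 starts at -53, and overlapping matches in Gbp3 start at -45 and -39. The motif was found in the windows of 2 of the 19 called genes, these 2, and in 3.44% of all windows.

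Gdf15, a stress-induced member of the transforming growth factor family (chr8:70629393-70632456, minus strand), rose from 7.25 and 4.804 CPM in NC to 20.2 and 33.7 in HFpEF (2.23 ± 0.27, adjusted p = 0.0213) and passed in all 14 other fits. It was rare in single cells, with a UMI in 0.358%, 0.215%, 0.973% and 2.15% of thinned members. Ptger4 was at 29.4, 37.8, 82.4 and 73.8 CPM (1.21 ± 0.15, adjusted p = 0.0213), Pde4b, whose enzyme degrades cyclic AMP, at 36.8, 46.6, 86.2 and 97.6 CPM (1.15 ± 0.15, adjusted p = 0.0213), and the kinase gene Sik1 at 57.2, 48.4, 103 and 105 CPM (0.98 ± 0.13, adjusted p = 0.0213). None of the 4 genes overlapped between the diets, and at equal depth all but Ptger4 (1.09, adjusted p = 0.113) passed. Tnfrsf10b, the mouse TRAIL receptor gene, was at 20.9, 18.0, 34.3 and 48.8 CPM, and the homeobox gene Hlx at 43.0, 35.6, 81.5 and 79.6 CPM. The other higher genes (Slc25a25, Kctd12b, Spry4, Erh, Arc, Akap12, Bcl6b and Ptges3) had differences from 0.72 for Ptges3 to 1.05 for Slc25a25.

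Overlap with other annotated genes limits the reading of several called genes. Ccdc152 was at 7.93, 8.30, 28.3 and 38.7 CPM (2.08 ± 0.19, adjusted p = 0.00496), but it overlaps Selenop on the opposite strand at chr15:3280070-3303526, strand handling was not stated, and at equal depth it did not pass (1.73, adjusted p = 0.121). Selenop itself, at 715, 653, 764 and 653 CPM, overlapped between the diets. Gm29773, an antisense transcript that overlaps Nup133 at chr8:123896273-123900620, rested on 2, 3, 9 and 21 UMIs (3.53 ± 0.57, adjusted p = 0.0456) and passed in 4 of 9 other fits. Hspe1 and Hspd1 overlap each other on opposite strands, so reads there may count for either gene. Among the other higher genes, Gbp7 overlaps Gm43802, Gvin1 overlaps Gm18853, Erh overlaps Slc39a9, Slc25a25 overlaps Naif1, Ptger4 overlaps Ttc33, Hspa1a overlaps Gm20481 and Ifi47 overlaps Olfr56, and among the lower genes Ccdc28b overlaps Tmem234.

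The capillary programme itself showed no called change. Of 22 tested capillary identity genes none passed in either direction, and the median difference was -0.11. In HFpEF 4 were apart and higher and 7 apart and lower, against 23.2% of all genes tested in each direction. Fabp4 was at 29083, 38917, 30947 and 30308 CPM, Cd36 at 5194, 4949, 5825 and 6123, Gpihbp1 at 2938, 2971, 2290 and 2345, Aqp1 at 2550, 2648, 2147 and 1549 and Rgcc at 2953, 2750, 2257 and 1808. Gpihbp1, Aqp1 and Rgcc were lower and Cd36 higher in both HFpEF libraries without passing after adjustment (adjusted p = 0.309, 0.26, 0.23 and 0.516). At an unadjusted p under 0.05 there were 9 of the 22 genes, and 1556 of the 11186 genes tested. Of 25 fatty acid uptake and transport genes none passed, with a median of 0.07 and Lpl at 1921, 1506, 1639 and 1387 CPM. Of 16 arterial genes outside the rule none passed (median 0.16). Of 13 venous genes 1 fell, Vwf, against 0.0447% of all genes tested. Among these 13, 8 were apart and lower and none apart and higher (median -0.39, or 0.07 after thinning).

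Lists tied to quiescence and activation gave few calls. Of 25 tested quiescence and flow response genes outside the rule 1 fell (Klf15) and none rose, against 0.0447% and 0.215% of all genes tested. Klf2 was at 3608, 2908, 3163 and 2392 CPM, Klf4 at 2611, 1916, 2462 and 2071 and Id3 at 2272, 2150, 1971 and 1636. Of 16 proliferation genes none passed, and the replication gene Pcna was at 128, 132, 165 and 161 CPM. Of 21 inflammatory genes none passed, 9 were apart and higher and 4 apart and lower, against 23.2% of all genes tested in each direction. The neutrophil chemokine genes Cxcl1 and Cxcl2 were at 204, 202, 212 and 290 and at 41.8, 39.2, 53.6 and 93.0 CPM, the T cell chemokine gene Cxcl10 at 34.7, 43.0, 54.0 and 81.9 and the transcription factor gene Irf1 at 292, 326, 323 and 378. Cxcl1, Cxcl2 and Cxcl10 were above NC in both HFpEF libraries without passing (adjusted p = 0.367, 0.116 and 0.112), and Irf1 overlapped. Members with a UMI of the cytokine gene Il6 had been left out by the rule. Of 22 angiogenic and tip genes none passed (median 0.10), with the VEGF receptor gene Flt1 at 1500, 1468, 1307 and 1448 CPM.

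Families related to the marker genes also gave no calls. Of 13 metalloproteases and inhibitors none passed (median -0.08), with the inhibitor gene Timp3 at 1419, 1266, 1357 and 1114 CPM. Of 10 carbonic anhydrase and transport genes none passed (median -0.08), with Car8 at 272, 365, 280 and 274 CPM. Of 7 C1q and TNF related proteins and adiponectin receptors none passed (median -0.06), and Adipor2 was at 150, 111, 87.9 and 80.2 CPM (adjusted p = 0.131). Of 15 nitric oxide and caveolae genes none passed (median 0.04), with the caveolin gene Cav1 at 1470, 1608, 1562 and 1623 CPM and the nitric oxide synthase gene Nos3, whose enzyme L-NAME inhibits, at 129, 129, 106 and 98.0. A difference that did not pass is not shown to be absent with 2 libraries a diet.

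**Figure D4:**
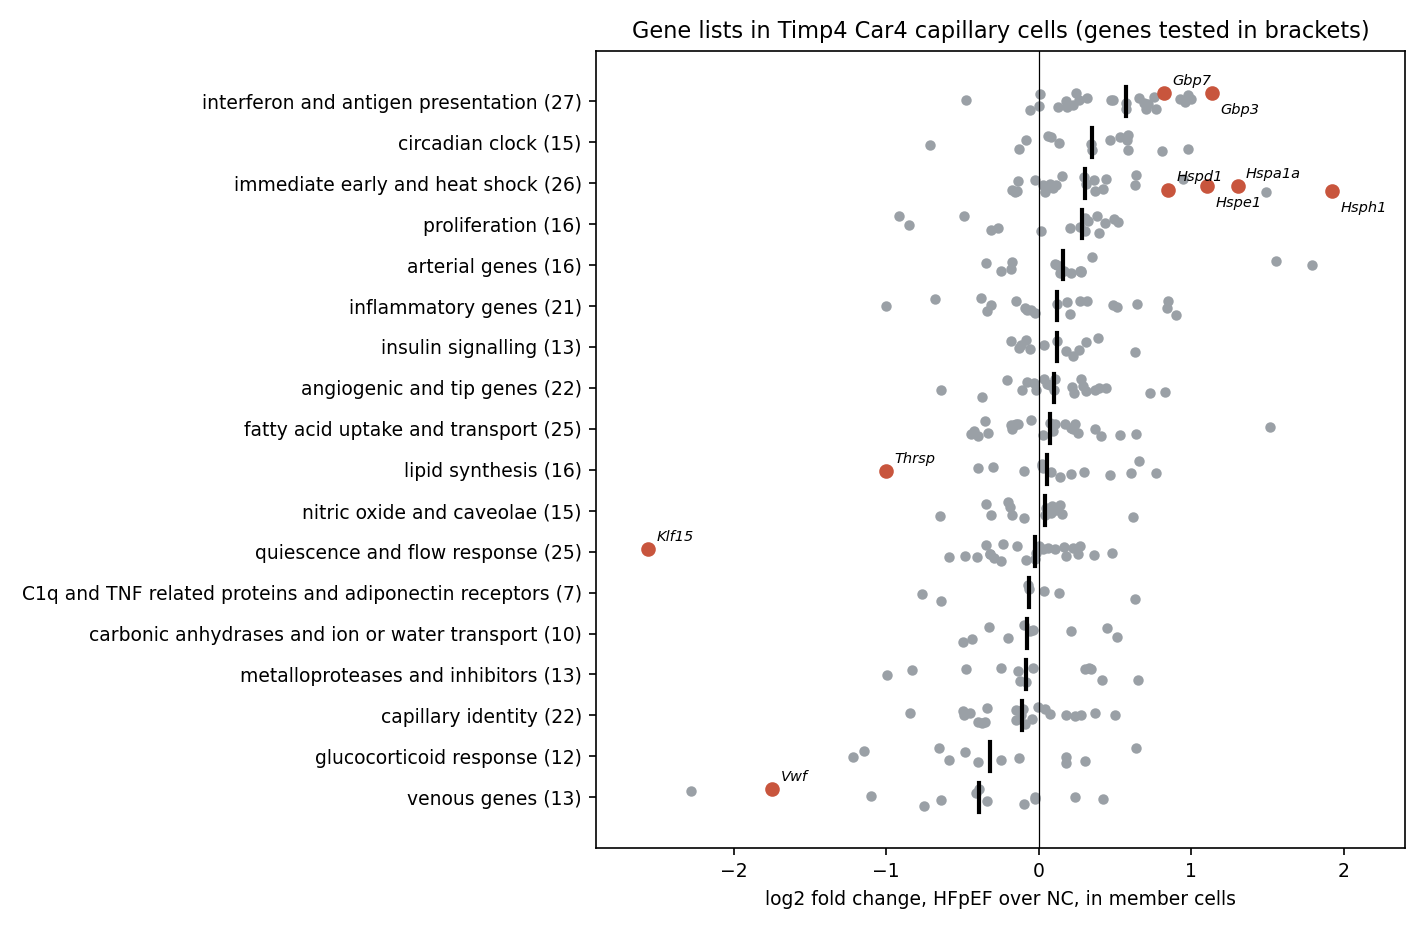
Log2 fold change in members, HFpEF over NC, of every tested gene in each list, with genes that passed the test in red and named and the list median as a black bar; lists are ordered by median. Among the lists other than cell type markers, as deposited, the interferon and antigen presentation list has the highest median (0.57) and the venous list the lowest (-0.39). After thinning the venous median was 0.07.

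Whether the diet difference was particular to members was tested as the difference between their HFpEF effect and that of marker-low cells, with the library as a block. The difference passed for 85 of 11115 genes (0.765%) as deposited and for 2 of 9634 (0.0208%) after thinning, so most of these calls were not made at equal depth. The 85 became 134 without NC library 1 and 30 without HFpEF library 2. Of the 29 genes called in members, 2 were among the 85, Vwf and Gm29773. Vwf fell by 2.95 on the log2 scale in marker-low cells, from 395 and 258 CPM to 31.7 and 49.3, against 1.75 in members, a difference between the classes of 1.15 ± 0.23 (adjusted p = 0.00265). Fits of marker-low cells alone gave Cyp1a1 -4.15, Thrsp -0.71, Hspe1 0.99, Hspa1a 1.44 and Gdf15 1.98, and for none of these 5 did the difference from members pass. Among capillary genes, Aqp1 had a difference of -0.54 ± 0.07 (adjusted p = 1.31e-06), with -0.49 in members and 0.03 in marker-low cells, but -0.17 after thinning (adjusted p = 0.62).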

How the data were processed

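The unit of the deposited values was the UMI count per gene and cell, without division by library size. The authors trimmed reads with fastp and obtained these counts with Cell Ranger 5.0.1 on mm10, and their methods describe downsampling of mapped reads per cell between samples. Whether the deposited counts precede or follow that downsampling was not settled, and depth still differed between libraries, which bears on rules made of whole UMIs. Cells with over 200 genes and under 20% mitochondrial UMIs were kept, as in the study (40154 of 41843), then those with under 1% of 4 hemoglobin genes (39829).

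The rule was applied to each cell, UMIs of members were summed per library, and sums were compared with edgeR 4.0.16 (R 4.3.3): TMM factors, filterByExpr, quasi-likelihood test and Benjamini-Hochberg adjustment over all genes at 0.05. Median member depth was 1895 to 3840 UMIs. The difference between classes was an interaction with the library as a block. Ratios between classes were taken within a library with 1 CPM added. Alternatives were DESeq2 1.42.0, other normalization, filter, thresholds and depths, a replicate block, UMIs split between rule and sums, members in the top 5% of depth of their library's ECs left out in place of a doublet caller, and each library left out. The same-numbered libraries are not known to be paired. Named genes were the rule's genes, the 10 largest called rises and falls of at least 10 CPM without overlap (filled by smallest p), the called and the 4 most abundant genes of each list, the genes most and least abundant against marker-low cells, and 5 genes of the study. Members, lists and tests were chosen with earlier results of these data known. Gene positions were from GENCODE for GRCm38 and matched all 57 called or rule genes. Scripts were tested on simulated data with 200 changed genes. For the test between diets, 16 of 155 calls were false at a simulated log2 fold change of 1, and 69.5% of changed genes were recovered. At 2, 22 of 207 calls were false and 92.5% were recovered. For the difference between classes at 2, 12 of 172 calls were false and 80% were recovered. Results on some genes are not reported here.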

Additional observations from a re-analysis of the deposited data

Results flagged for a closer look

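The results here were singled out because the HFpEF effect differed between members and marker-low capillary cells by the test of that difference (quasi-likelihood test of edgeR, adjusted by Benjamini-Hochberg), which 85 genes passed. Values are the log2 fold change in members minus that in marker-low cells. The matrix gene Mgp had 3.39 ± 0.20, with 0.62 in members and -2.83 in marker-low cells. Cytl1 had 3.74, Plvap 2.61, Ctsh 2.45 and Dcn 2.35, with log2 fold changes in marker-low cells from -3.58 for Cytl1 to -2.75 for Dcn. Members held at most 41 UMIs of each of these 4 genes in any library and 75, 91, 23 and 111 of Mgp, so the values rest on marker-low cells and do not measure an effect in members. Vwf had 1.15, Cxcl10 0.66, Tm4sf1 0.60 and Igfbp3 0.54. Cxcl10 stood at 70.9, 121, 99.5 and 121 CPM in marker-low cells. Aqp1 had -0.54, Dok4 -0.53, Gpihbp1 -0.41, Fabp4 -0.32 and Id3 -0.25. Gm29773 had 5.73, from few UMIs. None of these passed after thinning, except that Gm29773 was not tested there. The lymphatic chemokine gene Ccl21a (the copy ENSMUSG00000094686) had a fitted difference of 2.88 as deposited and also passed after thinning, but members held 1, 5, 0 and 56 of its UMIs as deposited and 0, 0, 0 and 26 after thinning. The fitted values are therefore no measure of size and rest on HFpEF library 2. It is a multigene family whose copies can share reads. Endocardial and fibroblast markers of marker-low cells moved with the diet, and their part in these differences was not tested.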

How the results depend on the processing

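Every called gene that could be tested kept its direction in every alternative fit. The count of 29 became 70 with DESeq2, 19 with RLE factors, 445 without a low-count filter, 12 after thinning (7 shared), 63 and 7 with a marker threshold of 2 and 5, and 71 to 379 with a library left out (71 without NC library 1, 379 without NC library 2, 165 without HFpEF library 1, 100 without HFpEF library 2). The replicate block gave 87, which included all 29, and the deviations of same-numbered libraries correlated at 0.0414. The 85 differences from marker-low cells became 2 after thinning, 146 without a filter and 30 to 134 with a library left out (134 without NC library 1, 30 without HFpEF library 2). The difference in share of -15.6 percentage points became -9.45 and -20.1 with a threshold of 2 and 5 and -39.3 without the exclusions. Of 594 recomputed fold changes of 43 named genes, 90 lost and 60 gained significance and none reversed. The causes of these changes were not tested. Members of HFpEF library 1 held 2382257 UMIs, the fewest, so genes of a few CPM rest on few UMIs there.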

Other observations

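Other gene groups in members are given as values. Of 15 tested circadian clock genes none passed and the median difference was 0.35, with Bhlhe40 at 104, 71.1, 122 and 131 CPM and Nr1d1, which overlapped, at 35.4, 62.9, 91.4 and 40.8 CPM. The time of collection was not given in the sources used here. Of 12 glucocorticoid response genes none passed, and the median was -0.32, or -0.37 after thinning. In HFpEF 5 were apart and lower and 1 apart and higher, against 23.2% of all genes tested in each direction. Cdkn1a was at 2141, 1331, 1101 and 1204 CPM, Cebpd at 686, 451, 374 and 438 and Ddit4 at 605, 429, 374 and 286. Of 13 insulin signalling genes none passed (median 0.12), with the receptor gene Igf1r at 92.1, 80.5, 80.2 and 78.0 CPM. Kdm5d on the Y chromosome was at 10.8, 10.6, 5.58 and 5.87 CPM, while Uty was at 7.59, 8.73, 10.7 and 10.7. The cholesterol-sensing gene Insig1 was at 32.9, 43.8, 54.0 and 73.9 CPM, apart and higher in HFpEF without passing (adjusted p = 0.127). Spock2, a matrix proteoglycan gene, was at 55.2, 34.7, 22.7 and 22.4 CPM (adjusted p = 0.11).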
